A study of Mus musculus with 6 samples.

Results

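Iron storage, iron transport and heme breakdown were followed through 10 genes in mouse alveolar macrophages of Sdha-KO and wildtype mice. The genes were taken by name from the 23282 rows of the count table, and the rule used none of their values. They are the ferritin chains Ftl1 and Fth1, the heme breakdown enzymes Hmox1 and Blvrb, the iron transport genes Slc40a1, Tfrc, Slc11a1 and Slc11a2, and the iron sensors Ireb2 and Fbxl5. All 10 had a row, and 8 passed the filter on low counts and were tested. The cells were sorted from lung by flow cytometry on CD45, CD11c, F4/80 and SiglecF, without CD11b. Sdha-KO mice carried floxed alleles of Sdha, the flavoprotein subunit of succinate dehydrogenase, and LysM-Cre, a Cre recombinase driven from the Lyz2 locus that is active in myeloid cells at large and not in alveolar macrophages alone. Wildtype (WT) mice were the controls, with 3 libraries of each genotype, and whether they carried Cre or floxed alleles is not stated. The labels do not give age or strain, nor whether a library holds 1 mouse or several, so p-values measure the spread between libraries, which may be technical. Each of 3 batches, as the labels number them, held 1 library of each genotype.

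Ferritin is a hollow shell of heavy and light chains in which a cell keeps iron in a safe form. The heavy chain oxidises incoming iron and the light chain helps the mineral core to form. Macrophages also take iron from heme, which heme oxygenase opens to biliverdin, iron and carbon monoxide, and alveolar macrophages meet both inhaled iron and red cell debris. When iron is scarce, iron regulatory proteins bind a hairpin called the iron-responsive element (IRE). Binding at the 5' end of a messenger blocks its translation, and binding in the 3' end protects it from decay, so for ferritin this control acts on protein, which was not measured here. Succinate dehydrogenase itself holds iron-sulphur clusters in a partner subunit.

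The IREs are shown to give which of these genes held a match to a strict form of this element, and at which end of the messenger. A search of annotated transcripts (GENCODE M21, mm10) for a C, a stem of 5 bases and the loop CAGTGN, with a last loop base other than G and all 5 stem bases paired across the loop (G with T allowed), on the transcript strand, found sites in 4 of the 10 genes. Ftl1, Fth1 and Slc40a1 held 1 site each in the 5' UTR, and Tfrc held 4 in the 3' UTR. Of all genes with an annotated UTR of any length, 0.110% held such a site in the 5' UTR and 0.461% in the 3' UTR. Capitals mark the bulged C and the loop of 6 bases.
Ftl1, chr7:45459779-45459808, minus strand: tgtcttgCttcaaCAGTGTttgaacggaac
Fth1, chr19:9982731-9982760, plus strand: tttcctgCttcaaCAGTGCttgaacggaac
Slc40a1, chr1:45925465-45925494, minus strand: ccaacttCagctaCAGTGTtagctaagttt
Tfrc, chr16:32631218-32631247, plus strand: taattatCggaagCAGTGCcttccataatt
Tfrc, chr16:32631597-32631626, plus strand: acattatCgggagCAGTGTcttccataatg
Tfrc, chr16:32631662-32631691, plus strand: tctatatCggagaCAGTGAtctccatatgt
Tfrc, chr16:32631709-32631738, plus strand: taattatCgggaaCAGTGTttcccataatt
The Ftl1 and Fth1 sites were identical at 27 of 30 bases, while the Slc40a1 site shared 13 of 30 with each of them. The other 6 genes held no match to these letters in their annotated UTRs, which says nothing about other forms of the element. A match describes a sequence and not its use in these cells.

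Libraries held 5400160 to 8472907 counts. Both batch 1 libraries stood apart: 5438 genes were detected in Sdha-KO replicate 1 and 7893 in WT replicate 1, whereas batches 2 and 3 gave 11383 to 13050. Of the 10 genes, 5 had no count in Sdha-KO replicate 1 and 3 had none in WT replicate 1, while all 10 had counts in the other libraries. The targeted gene Sdha had 26.1, 21.0 and 22.8 CPM (counts scaled to library size with TMM factors) in Sdha-KO replicates 1 to 3, against 56.0, 65.5 and 72.2 CPM in WT replicates 1 to 3. Of 14 alveolar macrophage markers, all were detected in 5 libraries and 12 in Sdha-KO replicate 1, where Siglecf and Adgre1, the genes of 2 of the sorting antigens, were at 0. The kit primes on the poly(A) tail, so counts do not scale with transcript length, but genes can still differ in how well they are read. In such bulk samples, fewer cells of a type and less RNA per cell cannot be told apart.

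Ferritin RNA was higher in Sdha-KO macrophages in every batch, and the ferritin chains were the only members whose genotypes did not overlap. Ftl1, the light chain (chromosome 7, 45457944 to 45459884, minus strand), had 30785, 8467 and 11842 counts in Sdha-KO replicates 1 to 3, against 8505, 3850 and 6781 in WT replicates 1 to 3. This came to 2569, 1575 and 1765 CPM in Sdha-KO libraries and 1042, 854.4 and 863.4 CPM in WT libraries. The lowest Sdha-KO library lay above the highest WT one. Fth1, the heavy chain with the ferroxidase site (chromosome 19, 9980598 to 9985098, plus strand), had 32429, 19478 and 24800 counts in Sdha-KO replicates 1 to 3, against 11759, 10788 and 18126 in WT replicates 1 to 3. Its levels were 2706, 3622 and 3696 CPM in Sdha-KO libraries and 1441, 2394 and 2308 CPM in WT libraries. Here too the lowest Sdha-KO library was above the highest WT one. Batch 1 was the high batch for Ftl1 in both genotypes and the low batch for Fth1 in both.

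**Figure D1:**
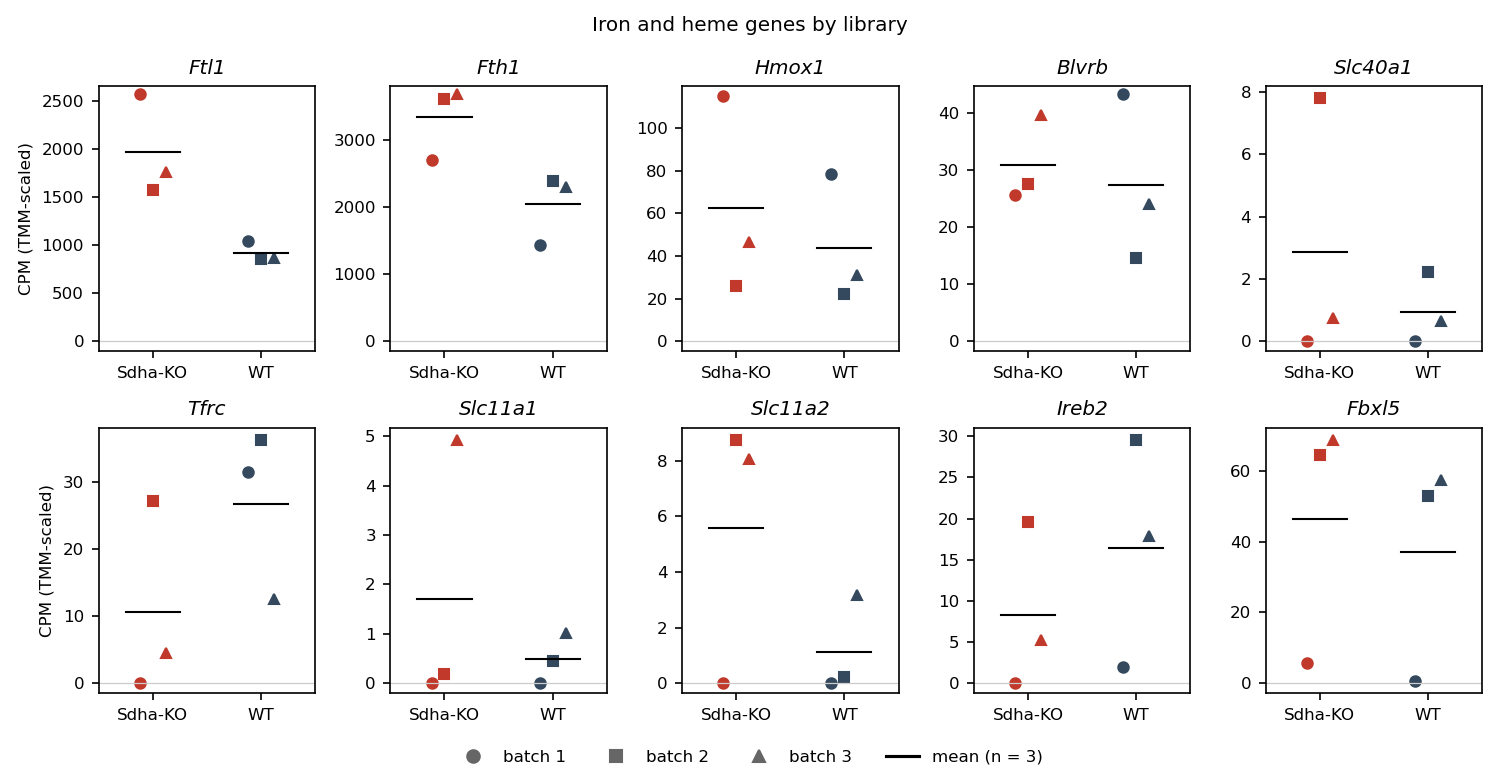
Levels of the 10 genes in CPM (TMM-scaled, vertical axis, a separate scale for each gene) in the 3 Sdha-KO and 3 WT libraries. Each symbol is 1 library, its shape gives the batch and the line is the mean (n = 3). The genotypes separate for Ftl1 and Fth1, while both batch 1 libraries sit at 0 for Slc40a1, Slc11a1 and Slc11a2.

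The fitted difference was 2.14-fold for Ftl1 (log2 fold change 1.10, SE 0.279) and 1.63-fold for Fth1 (log2 fold change 0.71, SE 0.273). Neither passed edgeR's quasi-likelihood test, with p adjusted by Benjamini-Hochberg over all genes and a threshold of 0.05. The unadjusted p was 0.00193 for Ftl1 (adjusted p = 0.729) and 0.0234 for Fth1 (adjusted p = 1.00). None of the 8 members tested was called, where 5 of 9963 genes were called in all (0.0502%, with 0.0401% higher and 0.01% lower in Sdha-KO). Both chains, of the 8 tested members, had an unadjusted p under 0.05 by edgeR, and across all genes 263 (2.64%) did. Groups did not overlap in 2 of the 10 genes, both higher in Sdha-KO, and 5.04% of all tested genes were higher without overlap and 9.27% lower. Within batches 1, 2 and 3, the log2 ratio of Sdha-KO over WT was 1.30, 0.88 and 1.03 for Ftl1. The same ratios were 0.91, 0.60 and 0.68 for Fth1, so both chains kept 1 direction in all 3 batches.

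With the batch number as a block, the log2 fold change was 1.07 for Ftl1 (SE 0.141, edgeR adjusted p = 0.402) and 0.73 for Fth1 (SE 0.115, edgeR adjusted p = 0.473), in a fit that called 0% of genes and gave 2.97% an unadjusted p under 0.05. Ftl1 passed with limma-voom (adjusted p = 0.0286), where 0.201% of genes were called, and with no filter on low counts (edgeR adjusted p = 0.00278), where 0.312% were. Without both batch 1 libraries the log2 fold changes were 0.97 and 0.65 for Ftl1 and Fth1, with edgeR adjusted p of 0.138 and 0.269, where 0.251% of genes were called (0.139% higher and 0.112% lower). With the block as well, both passed (edgeR adjusted p = 0.000797 for Ftl1 and 0.00974 for Fth1), in a fit with few residual degrees of freedom that called 3.01% of genes (1.65% higher and 1.36% lower). No member passed in the other fits, which called 0.0903% of genes with library totals alone, 0.211% with DESeq2, 0.0498% without the rows Rn45s, Rn4.5s and Lars2, and 0.0272%, 0.0645% and 0.0189% without Sdha-KO replicates 1, 2 and 3 in turn. Leaving out WT replicates 1, 2 and 3 in turn called 0%, 0.112% and 0.125%, again with no member. In the 4 libraries of batches 2 and 3 the mix of sexes moved with genotype. The X-inactivation RNA Xist had 498 and 822 counts in Sdha-KO replicates 2 and 3, against 4608 and 6055 in WT replicates 2 and 3. The Y-linked Ddx3y had 354 and 432 counts in Sdha-KO replicates 2 and 3, against 0 and 143 in WT replicates 2 and 3. Genotype and sex mix cannot be told apart there. In batch 1 the mix was the other way round. Sdha-KO replicate 1 had 2683 Xist and 0 Ddx3y counts, against 0 and 222 in WT replicate 1. Both ferritin chains were higher in Sdha-KO in batch 1 as in the other batches, and the part of sex in this was not tested.

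Together the ferritin chains were a sizeable part of the counts, which include ribosomal rows. They took 0.746%, 0.517% and 0.504% of all counts in Sdha-KO replicates 1 to 3, against 0.246%, 0.252% and 0.310% in WT replicates 1 to 3. Wilson 95% intervals for counting error reached at most 0.00605 percentage points to either side of these shares, which leaves out variation between animals and any PCR copies. The mean share was 0.589% ± 0.136 in Sdha-KO and 0.269% ± 0.0355 in WT libraries (SD, n = 3), and the exact two-sided permutation p of 0.1 is the smallest that 3 against 3 can give. In order of abundance Fth1 stood 15th, 9th and 8th of all rows in Sdha-KO replicates 1 to 3 and 28th, 11th and 12th in WT replicates 1 to 3. Ftl1 stood 18th, 22nd and 19th in Sdha-KO libraries and 47th, 43rd and 53rd in WT libraries.

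The size of the ferritin share depends on the ribosomal rows. The 45S ribosomal RNA precursor row, Rn45s, held 20.9% to 48.2% of the counts in Sdha-KO libraries and 36.3% to 57.6% in WT libraries. With that row, Rn4.5s and Lars2 out of the denominator, the share was 0.971% ± 0.0448 in Sdha-KO and 0.544% ± 0.0821 in WT libraries (SD, n = 3, exact two-sided permutation p = 0.1). On the TMM scale the summed chains reached 5275, 5197 and 5461 CPM in Sdha-KO libraries, against 2483, 3248 and 3171 CPM in WT libraries. The 3 Sdha-KO libraries were close to each other on this scale although their chains were mixed differently.

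The balance of the chains was read within each library, where scaling has no part. There were 94.9, 43.5 and 47.8 Ftl1 counts per 100 Fth1 counts in Sdha-KO replicates 1 to 3, against 72.3, 35.7 and 37.4 in WT replicates 1 to 3. The light chain thus weighed more in Sdha-KO in each batch, and more in batch 1 than in the other batches in both genotypes. The mean log2 ratio of Ftl1 to Fth1 was -0.78 ± 0.615 in Sdha-KO and -1.12 ± 0.570 in WT libraries (SD, n = 3). The difference of 0.34 was within the spread between libraries (exact two-sided permutation p = 0.5). Within batches it was 0.39, 0.28 and 0.35, with an exact paired permutation p of 0.25, the smallest that 3 pairs can give. Without Sdha-KO replicate 1 alone the unpaired difference was -0.010. Without both batch 1 libraries, which held the highest ratio of each genotype, it was 0.32.

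**Figure D2:**
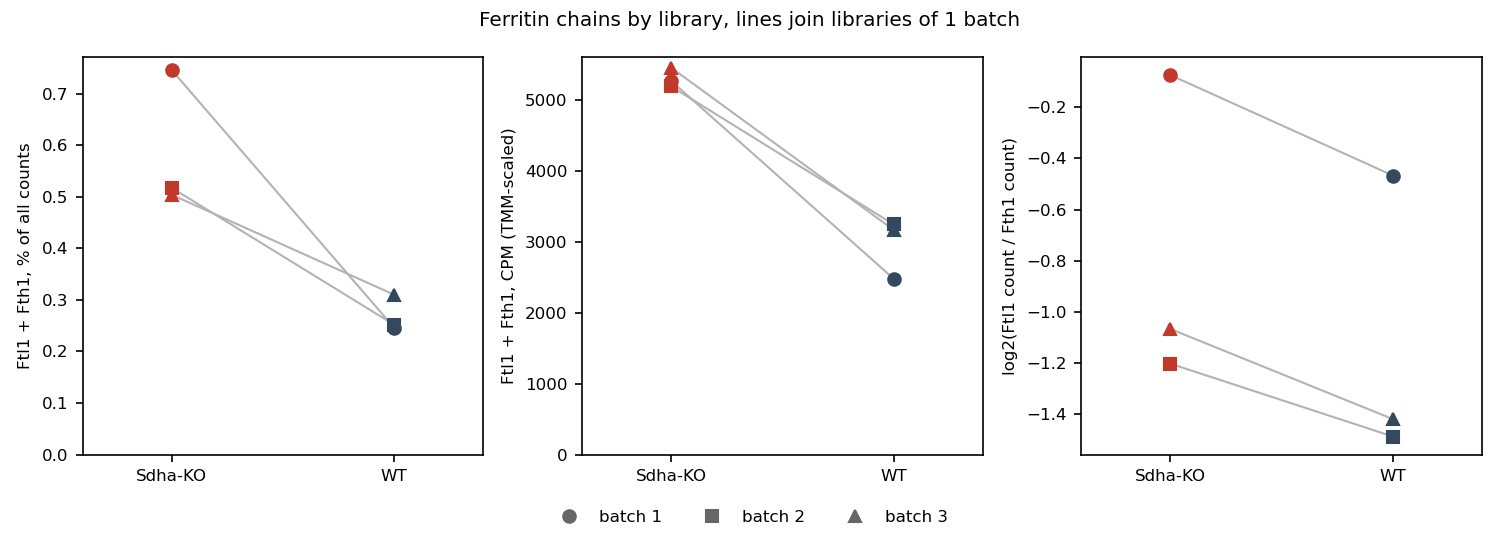
Ftl1 plus Fth1 as a percent of all counts (left), their summed CPM (middle) and the log2 ratio of Ftl1 to Fth1 counts (right) in each library. Lines join the Sdha-KO and WT library of 1 batch. The Sdha-KO library is the higher one of its batch in all 3 batches and every panel, and batch 1 lies apart in the ratio (-0.08 in Sdha-KO and -0.47 in WT).

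Markers of the sorted and of some other cell types also differed between genotypes. The 14 alveolar macrophage markers summed to 6580, 8831 and 7180 CPM in Sdha-KO replicates 1 to 3, against 7937, 9017 and 9735 CPM in WT replicates 1 to 3. The sum was lower in Sdha-KO within each batch, and Ear2, Krt79, Cidec and Siglecf lay below WT without overlap while Car4 lay above. Of all tested genes, 9.27% lay below without overlap and 5.04% above. Of the 14, 8 passed edgeR's test when the block was added and batch 1 left out. In that fit genotype moved with sex, and 3.01% of all genes passed. With all libraries 0 of the 14 passed, where 0.0502% of all genes did. At an unadjusted p under 0.05 by edgeR there were 5, against 2.64% of all tested genes.

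Summed dendritic cell markers (9 genes) were 125, 281 and 705 CPM in Sdha-KO replicates 1 to 3, against 27.1, 26.6 and 77.7 CPM in WT replicates 1 to 3, without overlap. Their median log2 fold change was 3.20 over 6 tested genes, 5 of them positive. When the block was added and batch 1 left out, 3 passed, where 3.01% of all genes did and genotype moved with sex. The chemokine gene Ccl17 alone had 111.2, 155.3 and 370.8 CPM in Sdha-KO libraries, against 0, 17.5 and 34.5 CPM in WT libraries. Xcr1 had 0.167, 0.372 and 15.9 CPM in Sdha-KO libraries, against 18.7, 2.66 and 5.09 CPM in WT libraries. It was lower in Sdha-KO in batches 1 and 2 and higher in batch 3. Of the defining genes, Flt3 and Zbtb46 were at 0 in replicates 1 and 2 of both genotypes, and 5 of the 9 markers were at 0 in Sdha-KO replicate 1 and 7 in WT replicate 1.

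Summed neutrophil markers (6 genes) were 169, 218 and 164 CPM in Sdha-KO replicates 1 to 3, against 107, 106 and 73.8 CPM in WT replicates 1 to 3, without overlap. All 4 tested neutrophil markers were positive, with a median log2 fold change of 1.13. Retnlg was not tested and was at 0 in Sdha-KO replicates 1 and 2 and in WT replicate 1. Csf3r, also not tested, went the other way in batches 2 and 3. It had 1, 0 and 0 counts in Sdha-KO replicates 1 to 3, against 0, 25 and 35 in WT replicates 1 to 3. Summed interstitial macrophage markers (8 genes) were 0.501, 88.9 and 144.6 CPM in Sdha-KO libraries, against 15.2, 31.7 and 30.7 CPM in WT libraries. Those were higher in Sdha-KO in batches 2 and 3 and lower in batch 1, and all 7 tested were positive with a median of 2.03. Monocyte markers (5 genes) summed to 129, 40.9 and 111 CPM in Sdha-KO libraries, against 68.4, 127 and 133 CPM in WT libraries. For epithelium (8 genes) the sums were 118, 149 and 701 CPM, against 229, 241 and 409 CPM. For lymphocytes (6 genes) they were 0, 5.95 and 27.7 CPM, against 0, 15.1 and 23.7 CPM. The monocyte, epithelium and lymphocyte sums overlapped between genotypes and kept no single direction across batches.

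The 9 erythroid rows summed to 146, 379 and 523 CPM in Sdha-KO replicates 1 to 3, against 191, 309 and 337 CPM in WT replicates 1 to 3, with overlap. Hbb-bs and Hbb-b1 had equal or nearly equal counts in each library (713 each in Sdha-KO replicate 1). So did Hbb-bt and Hbb-b2 (111 each in Sdha-KO replicate 2), so the sums and the rows at 0 may count the same reads more than once. In both genotypes the erythroid sum was lowest in batch 1, as was Fth1, while Ftl1 was highest there. Slc4a1 and Alas2 were among the 6 erythroid rows at 0 in Sdha-KO replicate 1 and the 4 at 0 in WT replicate 1. Genes that tissue dissociation induces (13) summed to 4389, 6173 and 7087 CPM in Sdha-KO libraries, against 3361, 3499 and 5710 CPM in WT libraries, higher in Sdha-KO within each batch with overlap between genotypes. The part of these cell types and of dissociation in the ferritin result was not tested. Annotated near-copies such as Ftl1-ps1 and Fth-ps2 exist, and exons of Ftl1 overlap Gm22133 and, on the other strand, Gm10252, so Ftl1 and Fth1 counts are uncertain where a read matched more than 1 place.

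The 5 genes with profiles nearest to the mean of both ferritin chains were Got2, Rps6, Litaf, Rpl29 and Rpl39. They were chosen from 1890 genes of at least 50 CPM and a range of at least 1 log2 unit. Their root mean square difference from the ferritin profile over the 6 libraries was at most 0.143 on the log2 scale. Choosing the nearest genes keeps this value small. Either ferritin chain differed by 0.257, the same for both because the profile is the mean of these chains. Litaf, a lysosomal membrane protein gene, was at 126.3, 125.5 and 125.1 CPM in Sdha-KO replicates 1 to 3, against 52.1, 64.4 and 78.6 CPM in WT replicates 1 to 3. Got2, the mitochondrial aspartate aminotransferase gene, was at 78.0, 57.8 and 68.6 CPM in Sdha-KO libraries, against 30.02, 38.4 and 37.6 CPM in WT libraries. The other 3 encode proteins of the cytosolic ribosome. None of the 5 passed the test (edgeR adjusted p = 1.00 each).

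Among the heme breakdown enzymes, both genes overlapped between genotypes. Hmox1, the inducible heme oxygenase (chromosome 8, 75093621 to 75100589), had 115.1, 25.8 and 46.4 CPM in Sdha-KO replicates 1 to 3, against 78.6, 22.2 and 31.1 CPM in WT replicates 1 to 3. It followed the batch more than the genotype, with batch 1 highest and batch 2 lowest in both, and was higher in Sdha-KO within each batch, by 0.55, 0.22 and 0.58 on the log2 scale. The log2 fold change was 0.51 (SE 0.826, edgeR adjusted p = 1.00), and it was -0.29 without Sdha-KO replicate 1. Blvrb, biliverdin reductase B, which reduces biliverdin and flavins (chromosome 7, 27447978 to 27466144), had 25.7, 27.5 and 39.6 CPM in Sdha-KO libraries, against 43.4, 14.6 and 24.1 CPM in WT libraries. Its difference changed sign between batches, at -0.76 in batch 1, 0.91 in batch 2 and 0.72 in batch 3 on the log2 scale (fitted log2 fold change 0.18, SE 1.21, edgeR adjusted p = 1.00). Without WT replicate 2 the fitted value was -0.13 and without Sdha-KO replicate 3 it was -0.04.

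The transport genes were far less abundant than ferritin. Tfrc, the transferrin receptor that brings iron into cells and carries the 3' UTR elements above (chromosome 16, 32608920 to 32632794), had 0, 146 and 30 counts in Sdha-KO replicates 1 to 3, against 256, 163 and 98 in WT replicates 1 to 3. In CPM this was 0, 27.2 and 4.47 in Sdha-KO libraries and 31.4, 36.2 and 12.5 in WT libraries, lower in Sdha-KO within each batch although the genotypes overlapped. Sdha-KO replicate 1, where Tfrc was at 0, is the library with the fewest genes detected, and the part of that in the Tfrc value was not tested. The fitted log2 fold change was -1.34 (SE 2.02, edgeR adjusted p = 1.00), and without both batch 1 libraries it was -0.61 (edgeR adjusted p = 0.931). Leaving out 1 Sdha-KO library moved it to -0.75 (replicate 1) or -3.57 (replicate 2).

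Slc11a2, the iron importer DMT1 of the endosome and plasma membrane (chromosome 15, 100387898 to 100425072), had 0, 47 and 54 counts in Sdha-KO replicates 1 to 3, against 0, 1 and 25 in WT replicates 1 to 3. It was higher in Sdha-KO in batches 2 and 3 and could not be compared in batch 1, and the fitted log2 fold change was 2.28 (SE 2.78, edgeR adjusted p = 1.00). Leaving out 1 library moved it between 1.69 (without WT replicate 1) and 5.52 (without WT replicate 3). Exons of Slc11a2 overlap Gm5475 on the other strand, so its count is uncertain. Slc40a1, ferroportin, the iron exporter of the cell (chromosome 1, 45908068 to 45926523), had 0, 42 and 5 counts in Sdha-KO libraries, against 0, 10 and 5 in WT libraries. Slc11a1, NRAMP1, which moves metal ions out of the phagosome (chromosome 1, 74375195 to 74386062), had 0, 1 and 33 counts in Sdha-KO libraries, against 0, 2 and 8 in WT libraries. Slc40a1 and Slc11a1 did not pass the filter on low counts, and in each of them most Sdha-KO counts came from 1 library. By counting error alone a 0 (up to 3 counts) allows 0.250 CPM in Sdha-KO replicate 1 and 0.368 CPM in WT replicate 1. Those libraries had the largest totals of their genotypes and the fewest genes detected. Their zeros are given as counts, not as bounds on the RNA level, and the part of sequencing depth in them was not tested.

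The iron sensors had opposite signs without a call. Ireb2, iron regulatory protein 2, which binds IREs when iron is low (chromosome 9, 54863789 to 54912530), had 0, 105 and 35 counts in Sdha-KO replicates 1 to 3, against 16, 133 and 140 in WT replicates 1 to 3. In CPM it was at 0, 19.5 and 5.22 in Sdha-KO libraries and 1.96, 29.5 and 17.8 in WT libraries, lower in Sdha-KO within each batch (log2 fold change -0.99, SE 2.22, edgeR adjusted p = 1.00). The fitted value was -0.28 without WT replicate 2 and -2.63 without Sdha-KO replicate 2. Fbxl5, the F-box protein that is stable when iron is plentiful and then marks IRP2 for degradation (chromosome 5, 43744615 to 43821638), had 5.67, 64.5 and 68.7 CPM in Sdha-KO libraries, against 0.613, 53.0 and 57.4 CPM in WT libraries. It was higher in Sdha-KO within each batch, by 3.21, 0.28 and 0.26 on the log2 scale, the first from 68 counts in Sdha-KO and 5 in WT. The fitted log2 fold change was 0.32 (SE 1.33, edgeR adjusted p = 1.00), and it was -0.26 without WT replicate 1 and -0.08 without Sdha-KO replicate 3. Exons of Fbxl5 overlap those of Bst1 on the other strand, and Bst1 had 634, 215 and 337 counts in Sdha-KO libraries, against 170, 164 and 410 in WT libraries, so the Fbxl5 count is uncertain.

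**Figure D3:**
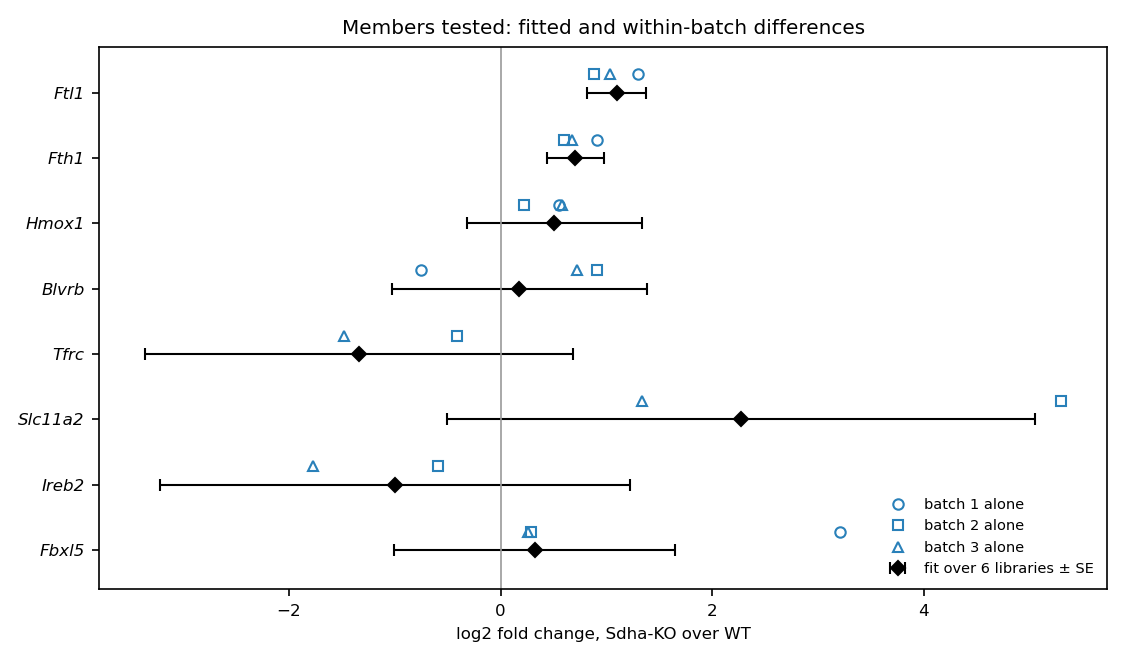
Log2 fold change of Sdha-KO over WT for the 8 tested genes. Black diamonds are the edgeR fit over 6 libraries with its SE, and open symbols are the ratio within 1 batch, left out where a library had no count. Ftl1 (1.10) and Fth1 (0.71) have narrow intervals, and the others cross 0.

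Across the 10 genes, 4 were higher in Sdha-KO in all 3 batches (Ftl1, Fth1, Hmox1 and Fbxl5), where 11.4% of tested genes were. Tfrc and Ireb2, 2 of the 10, were lower in all 3, where 19.9% of tested genes were. The median log2 fold change of the 8 tested members was 0.41, against -0.13 over all genes tested, and 0.55 without both batch 1 libraries. These values describe genes picked by name with earlier results known and are no test of the group.

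The rest of the pathway was read from 5 lists with 70 rows, of which 50 genes were tested. None passed in either direction (0 higher and 0 lower), where 0.0502% of all genes did. Of the 50, 33 had positive log2 fold changes, where 45% of all tested genes did. An unadjusted p under 0.05 by edgeR was found for 1, against 2.64% of all tested genes. Without both batch 1 libraries, positive values were found for 3 of 7, 2 of 7, 6 of 9, 6 of 10 and 12 of 17 genes. These counts follow the order of the lists below. The median over all tested genes was then -0.02, against -0.13 with all libraries. When both batch 1 libraries were left out and the block was added, a fit in which genotype moved with sex, 2 passed, Alas1 and Hspa9. For 50 genes, 2 is close to the 3.01% of all genes that this fit called.

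Iron uptake and release had 7 tested genes with a median log2 fold change of 0.18, and of -0.01 without both batch 1 libraries. Trf, the plasma iron carrier transferrin, had 274.9, 533.5 and 425.4 CPM in Sdha-KO replicates 1 to 3, against 518.4, 589.0 and 607.2 CPM in WT replicates 1 to 3. It was lower in Sdha-KO within each batch, but the genotypes overlapped (log2 fold change -0.47, SE 0.324, edgeR adjusted p = 1.00). Hfe, which pairs with transferrin receptors, had 557, 32 and 23 counts in Sdha-KO libraries, against 0, 15 and 45 in WT libraries, so its higher mean came from Sdha-KO replicate 1. Hamp, the gene of the hormone hepcidin that closes ferroportin, had 0, 38 and 6 counts in Sdha-KO libraries, against 0, 0 and 0 in WT libraries, and did not pass the filter.

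Iron sensing, chaperoning and ferritin turnover had 7 tested genes with a median of 0.37, and of -0.07 without both batch 1 libraries. Pcbp2, an RNA-binding protein that also delivers iron to ferritin, had 117.1, 285.1 and 214.2 CPM in Sdha-KO libraries, against 38.5, 184.9 and 139.5 CPM in WT libraries (log2 fold change 0.76, SE 0.560, edgeR adjusted p = 1.00). It was higher in Sdha-KO in each batch, with overlap between genotypes. Skp1a, a subunit of the ligase that FBXL5 works in, had 161.9, 32.2 and 35.3 CPM in Sdha-KO libraries, against 4.78, 48.6 and 45.3 CPM in WT libraries, with opposite signs between batches.

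Heme transport and breakdown had 9 tested genes with a median of -0.38, and of 0.08 without both batch 1 libraries. Blvra, the main biliverdin reductase, had 64.3, 131.5 and 154.0 CPM in Sdha-KO libraries, against 183.7, 118.1 and 198.7 CPM in WT libraries (log2 fold change -0.52, SE 0.456, edgeR adjusted p = 1.00). Hp, haptoglobin, which binds free haemoglobin, had 699, 40 and 96 counts in Sdha-KO libraries, against 0, 11 and 98 in WT libraries, and most of its difference came from batch 1.

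Heme synthesis had 10 tested genes with a median of 0.14, and of 0.08 without both batch 1 libraries. Alas1, the rate-limiting enzyme of heme synthesis outside red cells, had 19.03, 43.5 and 75.7 CPM in Sdha-KO libraries, against 47.8, 115.8 and 138.0 CPM in WT libraries. It was lower in Sdha-KO within each batch, by -1.33, -1.41 and -0.87 on the log2 scale, with overlap between genotypes (fitted log2 fold change -1.13, SE 0.674, edgeR adjusted p = 1.00). When the block was added and batch 1 left out, its log2 fold change was -1.12 (edgeR adjusted p = 0.0425). Tmem14c, a mitochondrial membrane protein of heme synthesis, had 256.7, 85.7 and 99.4 CPM in Sdha-KO libraries, against 188.6, 117.6 and 133.8 CPM in WT libraries. Urod, a porphyrin decarboxylase gene, had 581, 36 and 29 counts in Sdha-KO libraries, against 0, 50 and 81 in WT libraries.

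Mitochondrial iron and iron-sulphur cluster assembly had 17 tested genes and a median log2 fold change of 0.89, which was 0.24 over the same genes without both batch 1 libraries. Genotypes did not overlap in 4 of its genes that were higher in Sdha-KO (Isca1, Isca2, Iscu and Hspa9). Another 2 were lower without overlap, Nfu1 among them. Over all tested genes, 5.04% were higher without overlap and 9.27% lower. Hspa9, the mitochondrial chaperone that hands on new clusters, had 250.3, 160.5 and 161.3 CPM in Sdha-KO libraries, against 11.5, 62.4 and 68.2 CPM in WT libraries (log2 fold change 2.01, SE 0.621, edgeR adjusted p = 1.00). When the block was added and batch 1 left out, its log2 fold change was 1.31 (edgeR adjusted p = 0.00634), against a ratio of 4.44 on the log2 scale within batch 1 alone. Nfu1, which passes clusters to target enzymes, had 4.76, 5.95 and 13.9 CPM in Sdha-KO libraries, against 109.2, 16.0 and 17.8 CPM in WT libraries, with the widest gap between genotypes in batch 1.

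**Figure D4:**
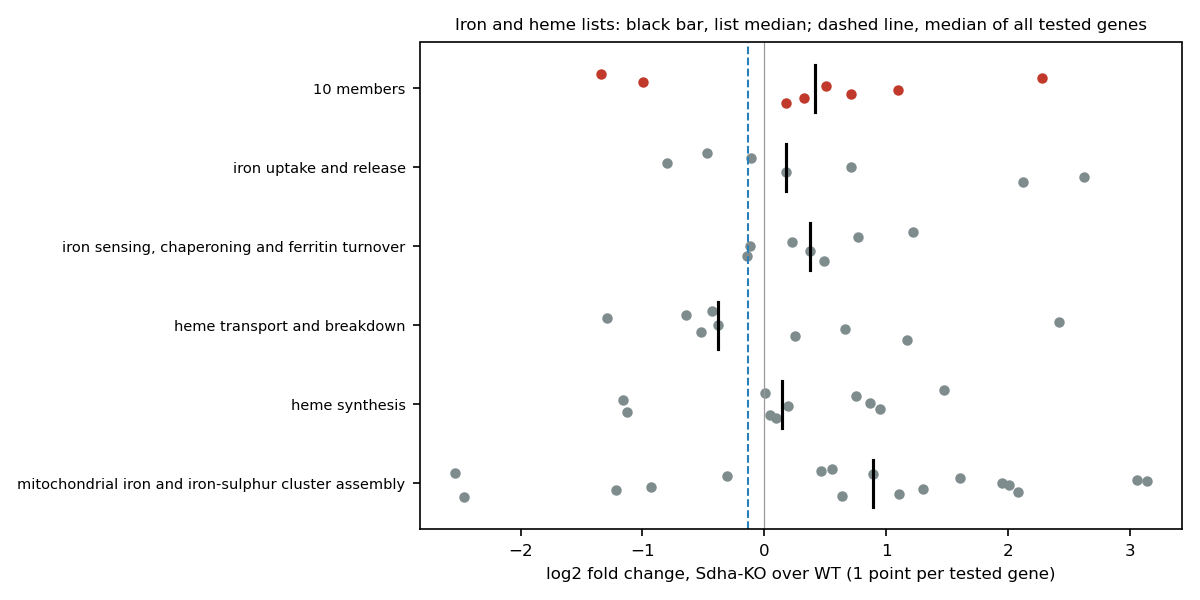
Log2 fold change of Sdha-KO over WT for each tested gene (1 point) of the 10 members and of 5 other iron and heme lists. Black bars are list medians and the dashed line is the median of all tested genes (-0.13), both with all 6 libraries. No gene shown passed the test over all genes.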

How the data were processed

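RNA of sorted alveolar macrophages was measured in 3 Sdha-KO and 3 WT libraries made with a QuantSeq 3' mRNA kit, per the labels' protocols. The authors deposited raw read counts per gene symbol, made with Bowtie2 and bedtools on mm10 per the submitters' processing notes; the sources used here do not give the annotation, strand or rule for reads with several matches. Genotypes were compared with edgeR 4.0.16 in R 4.3.3 (genotype as the only term; quasi-likelihood F-test with robust fitting after filterByExpr at a minimum count of 10 and TMM scaling; Benjamini-Hochberg adjustment over 9963 genes, threshold 0.05). The SE is the log2 fold change divided by the square root of F. Ratios and shares were compared by exact permutation over libraries.

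The labels give each replicate number as a batch number too, so the numbers pair the libraries. Across genes, the deviations of same-numbered libraries from their group means had correlations of 0.155, 0.117 and 0.126, against -0.152 to 0.111 for the other pairs. Alternatives were the replicate block, RLE factors, library totals, other filters, DESeq2 1.42.0, limma-voom (limma 3.58.1), leaving out Rn45s, Rn4.5s and Lars2, and leaving out each library or both batch 1 libraries; list medians without batch 1 were added after seeing the data. Named genes were the 10 members. Each other list gave its called genes or, with none called, the gene of highest mean CPM and the 2 tested genes of smallest p. The 5 genes nearest the ferritin profile (prior count 2) were added. Bst1, Xist, Ddx3y, Hamp, Isca1, Isca2, Iscu and the single markers were named after their values were seen. Members and lists were chosen with earlier results of these data known. Coordinates and sequences are from GENCODE M21 on mm10.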

Additional observations from a re-analysis of the deposited data

How the results depend on the processing

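None of the 10 genes passed in 13 of 16 alternatives; the count was 1 with no filter, 1 with limma-voom (Ftl1 in both) and 2 without both batch 1 libraries with the replicate block. Ftl1 and Fth1 stayed positive in all 16, with log2 fold changes of 0.86 to 1.43 and 0.50 to 0.97. Tfrc and Ireb2 stayed negative in all 16. Leaving out 1 library at a time moved Hmox1 between -0.29 and 1.22, Blvrb between -0.13 and 0.67, Fbxl5 between -0.26 and 0.86, Tfrc between -3.57 and -0.75, Ireb2 between -2.63 and -0.28, Slc11a2 between 1.69 and 5.52 and the log2 difference in the Ftl1 to Fth1 ratio between -0.010 and 0.67. The cause was not tested. The difference in ferritin share stayed positive in 10 of 10 alternatives (0.230 to 0.426 percentage points). With all libraries the replicate block changed no call on the 10 genes. The count over all genes, 5, was 0 with the replicate block (296 at an unadjusted p under 0.05), 9 with library totals alone, 48 with no filter, 0 with the stricter filter, 21 with DESeq2, 20 with limma-voom, 27 without both batch 1 libraries, and 324 when the block was added to that; leaving out single libraries gave 0 to 13. Library totals alone moved the median log2 fold change of all genes to 0.05, against -0.13. Slc40a1, Slc11a1 and Slc11a2 were at 0 in both libraries of batch 1, whose total counts were not the lowest.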
